A study of Mus musculus with 8 samples.

Results

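The haemoglobin genes and Alas2, the erythroid enzyme of haem synthesis, were measured by 9 probes among the 55681 non-control probes of a 1-colour Agilent array. These were the probes whose gene name in the scanner files begins with Hba- or Hbb-, together with the probe of Alas2. They cover 8 genes: Hba-a1, Hba-a2, Hba-x, Hbb-b1, Hbb-b2, Hbb-bh1, Hbb-y and Alas2. The genes were chosen on their log2 differences between R6/2 and wild-type (WT) arrays in these data, so the differences between genotypes are given as a description with no test.

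The arrays held RNA from the striatum of male mice aged 4 weeks, 4 samples labelled R6/2 and 4 labelled WT. R6/2 is a model of Huntington's disease whose transgene holds the human huntingtin promoter and the first exon of that gene with a long CAG repeat. The WT samples are the controls, and no treatment is given for either genotype. The labels name no strain and do not say that each sample came from a separate animal, so a p-value here reflects the spread among the arrays, part of which may be technical.

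Haemoglobin carries oxygen in red blood cells and is a tetramer of alpha-like and beta-like globin chains, each holding a haem. Adult mice use the alpha genes Hba-a1 and Hba-a2 and a pair of adult beta genes, while Hba-x, Hbb-y and Hbb-bh1 belong to embryonic red cells. Mouse strains carry different versions of the adult beta pair: one version is named Hbb-bs and Hbb-bt, and the other is named Hbb-b1 (major) and Hbb-b2 (minor). Alas2 makes the precursor of haem in the mitochondria of maturing red cells, and its paralogue Alas1 does so in other cells. In brain tissue, globin RNA can come from blood left in the vessels, and some neurons and glia are also known to hold it.

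The probe sequences are shown for the Hba-a1 probe, which cannot separate the alpha genes, and for the Hbb-b2 probe, whose pattern differed from the others. They are written 5′ to 3′ as in the scanner files, in lower case throughout because no stretch is singled out.
Hba-a1 probe: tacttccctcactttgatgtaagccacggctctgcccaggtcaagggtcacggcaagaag
Hbb-b2 probe: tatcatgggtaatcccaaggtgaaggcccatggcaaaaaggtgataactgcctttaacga
On build mm9 the scanner files place the Hba-a1 probe at chr11:32183955-32184014 on the plus strand and the Hba-a2 probe at chr11:32197245-32197304, also plus. Both probes list the same 2 RefSeq transcripts, those of Hba-a1 and Hba-a2, so their signals can come from either gene. The Hbb-b1 probe lies at chr7:110961105-110961164 on the minus strand and lists a transcript that RefSeq now names Hbb-bt. The scanner files give the Hbb-b2 probe no position. It lists 4 RefSeq transcripts, 2 of which the probe named Beta-s, now Hbb-bs, also lists. The Alas2 probe lies at chrX:147004993-147005052 on the plus strand. Each probe is designed against a transcript, and the exon or UTR it falls in was not analysed here.

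The bases just upstream of the transcription start are shown for genes whose probes moved together across arrays, and for Hbb-bs. That of Hba-a2 is left out because it is nearly the same as that of Hba-a1. They come from RefSeq on build GRCm38.p6 and cover the 120 bases before the start, 5′ to 3′ on the gene's strand. Capitals mark 4 short motifs found on either strand. These are GATAA, which GATA factors bind, and CACCC, which factors of the Klf family bind. The others are CCAAT, a common promoter box, and ATATAA, a form of the TATA box.
Hba-a1, chr11:32283552-32283671, plus: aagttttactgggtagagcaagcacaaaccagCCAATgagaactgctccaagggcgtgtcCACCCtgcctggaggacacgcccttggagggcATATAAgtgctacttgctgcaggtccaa
Hbb-bt, chr7:103813924-103814043, minus: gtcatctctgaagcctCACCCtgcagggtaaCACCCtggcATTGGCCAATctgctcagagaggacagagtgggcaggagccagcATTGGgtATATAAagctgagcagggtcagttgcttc
Hbb-bs, chr7:103827929-103828048, minus: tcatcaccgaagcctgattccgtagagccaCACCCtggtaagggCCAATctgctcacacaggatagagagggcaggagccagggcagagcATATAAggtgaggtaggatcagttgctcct
Alas2, chrX:150547297-150547416, plus: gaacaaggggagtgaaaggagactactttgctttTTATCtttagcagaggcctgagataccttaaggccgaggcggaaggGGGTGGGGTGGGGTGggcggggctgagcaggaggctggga
The 3 globin stretches each held the motifs CACCC, the box CCAAT and the box ATATAA, with no match to GATAA. The Alas2 stretch held GATAA at 1 place and the motif CACCC at 3 places, with neither of the other motifs. No marked motif overlapped another. Of the 32851 promoters of the same length in the table, 31.7% held CACCC, 21.3% CCAAT, 10.5% GATAA and 4.47% ATATAA. These matches describe the letters only. The 300-base windows around the starts of Hba-a1 and Hba-a2 shared an unbroken run of 297 bases, whereas those of Hbb-bs and Hbb-bt shared at most 14.

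All 8 arrays lay on 1 slide and were scanned together. The WT arrays were all in column 1 of the slide and the R6/2 arrays in column 2, so position on the slide and genotype cannot be told apart. On each array 61.5% to 67.7% of probes were well above background and 0 spots were saturated, and precision is limited by the number of arrays. The tissue label was checked with 10 markers of striatal projection neurons, all of them tested. WT replicate 3 stood apart from the other arrays in several genes outside the haemoglobins. For Lcn2, a secreted iron-carrier protein of the acute phase, its signal was 6.89 times the 75th percentile of its array, against 0.119 to 0.138 on the other 7. Many of the values that this array moves by over 1.5 times, and the upper WT sums of cell markers that it sets, are therefore also given without it.

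Every signal below is divided by the 75th percentile of all non-control spots on its array, and the levels of different probes are not compared. The Hba-a1 probe, for the alpha chain, read 38.0, 39.0, 37.4 and 34.8 in WT replicates 1 to 4 and 64.5, 52.9, 61.2 and 43.9 in R6/2 replicates 1 to 4. All R6/2 arrays were above all WT arrays, and the lowest R6/2 value belonged to replicate 4. The log2 difference, R6/2 minus WT, was 0.56 ± 0.12 (SE, n = 4 per genotype), a fold of 1.48. The SE of a single probe or gene, here and below, is the moderated one of the limma fit, which borrows spread from all tested probes.

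The Hba-a2 probe, for the other alpha gene, read 161, 170.02, 160 and 118 in WT replicates 1 to 4. In R6/2 replicates 1 to 4 it read 266, 214, 248 and 150.1. The genotypes overlapped only through replicate 4 of R6/2, which was below 3 of the WT arrays. The log2 difference was 0.51 ± 0.20 (SE, n = 4 per genotype).

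The Hbb-b1 probe, for the adult beta chain now named Hbb-bt, read 25.5, 28.1, 25.9 and 17.5 in the WT arrays. It read 46.8, 37.6, 38.0 and 23.4 in the R6/2 arrays, again in the order of replicate numbers. R6/2 replicates 1, 2 and 3 were above every WT array and replicate 4 was below WT replicates 1, 2 and 3. The log2 difference was 0.57 ± 0.23 (SE, n = 4 per genotype).

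The Hbb-b2 probe, for the minor adult beta chain, read 5.48, 5.54, 17.3 and 8.36 in the WT arrays and 9.44, 16.0, 18.2 and 10.2 in the R6/2 arrays. WT replicate 3 was above 3 of the R6/2 arrays, and the other 3 WT arrays were below all R6/2 arrays. The log2 difference was 0.67 ± 0.39 (SE, n = 4 per genotype), and without WT replicate 3 it was 1.03.

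The Alas2 probe read 0.681, 0.767, 0.905 and 0.489 in the WT arrays and 1.37, 1.04, 1.40 and 0.679 in the R6/2 arrays. Here too R6/2 replicates 1, 2 and 3 were above every WT array, and replicate 4 lay among them. The log2 difference was 0.64 ± 0.27 (SE, n = 4 per genotype; the SE was 0.31 without moderation), and without WT replicate 3 it was 0.77.

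**Figure D1:**
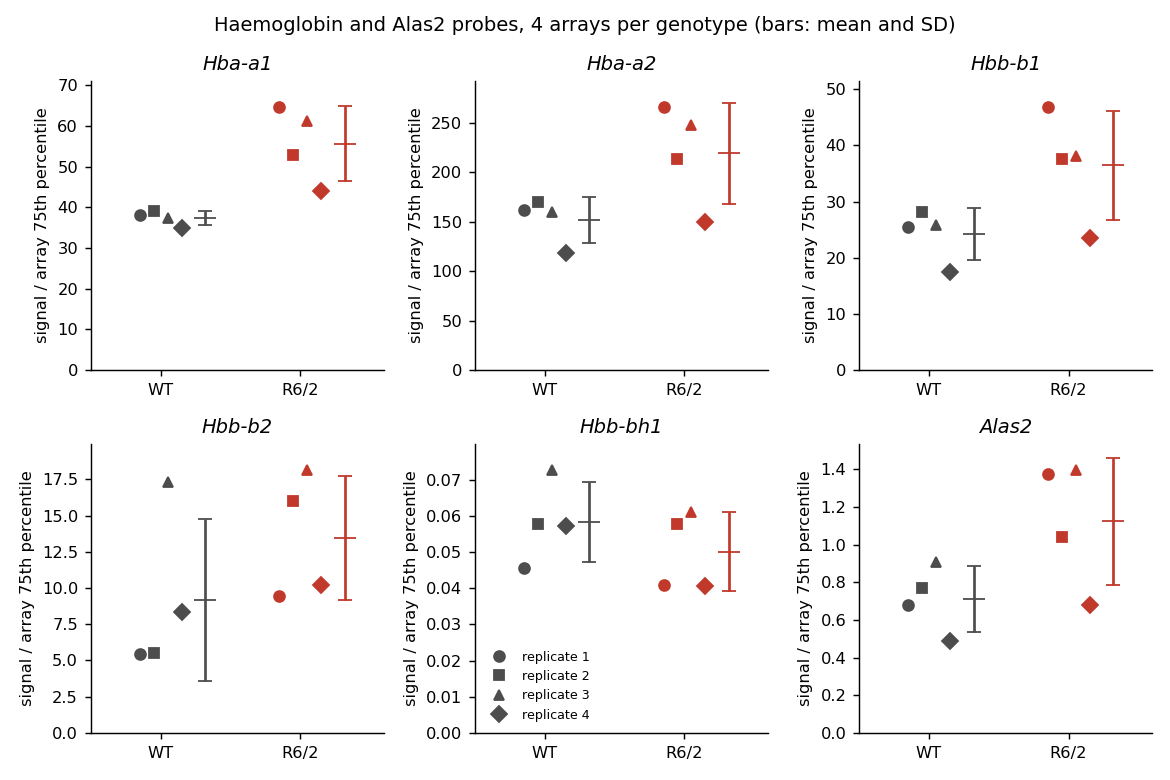
Signal divided by the array's 75th percentile (vertical axes, linear, from 0) for the 6 tested probes in WT and R6/2, with a marker for each replicate number and a bar for the mean and SD of 4 arrays. The genotypes do not overlap for Hba-a1, overlap through R6/2 replicate 4 for Hba-a2, Hbb-b1 and Alas2, and overlap through WT replicate 3 for Hbb-b2.

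The embryonic genes gave little or no signal. Hbb-bh1 was dim, yet well above background on all 8 arrays. It read 0.0456, 0.0577, 0.0727 and 0.0572 in the WT arrays and 0.0410, 0.0577, 0.0611 and 0.0407 in the R6/2 arrays. R6/2 replicates 1 and 4 were below every WT array, the other 2 R6/2 arrays lay within the WT range, and WT replicate 3 was highest. The log2 difference was -0.22 ± 0.19 (SE, n = 4 per genotype), and -0.11 without WT replicate 3. The probe of Hba-x and both probes of Hbb-y were not well above background on any array, so 3 of the 9 probes were not tested.

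Over the 4 adult haemoglobin probes the mean log2 difference was 0.58 ± 0.19 (SE, n = 4 per genotype), and 0.42 ± 0.18 when the embryonic Hbb-bh1 was averaged with them. The SEs of these means come from the array values without moderation. On single arrays the 4-probe mean log2 signal was 4.93, 4.99, 5.34 and 4.80 in WT and 5.71, 5.67, 5.83 and 5.15 in R6/2. R6/2 replicate 4 alone fell within the range of the WT arrays on this mean. Of all tested probes, 2.15% had a larger log2 difference than the smallest of these 4, and the median over all tested probes was 0.01. The genes were chosen on these differences, so nothing is read from that rank.

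In limma's moderated test with Benjamini-Hochberg adjustment, 0 of the 6 tested probes were called, against 1.51% of the 35121 probes tested. Without adjustment 4 of the 6 had p under 0.05, against 17% of all. By the methods' t-test 0 were called and 1 had an unadjusted p under 0.05. With the replicate number as a block 0 were called. Of the 6, 1 had all R6/2 arrays above all WT arrays, against 6.19% of all probes. R6/2 was higher than WT in every same-numbered pair of arrays for 5 of the 6, against 18.3% of all. These genes were chosen for this contrast, so nothing is read from those counts.

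Hba-a1, Hba-a2, Hbb-b1 and Alas2 moved together from array to array. Over the 8 arrays, which share 1 slide, their 6 pairwise Pearson correlations lay between 0.89 and 0.99. After each genotype's mean was subtracted they lay between 0.88 and 0.98. Alas2 and the mean of the other 3 probes then had r = 0.93 and Spearman's rho = 0.69. That relation rests largely on replicate 4 of both genotypes, the farthest from the median: without these arrays r was 0.58 over the remaining 6. Replicate 4 was the lowest array of its genotype for each of these 4 probes.

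**Figure D2:**
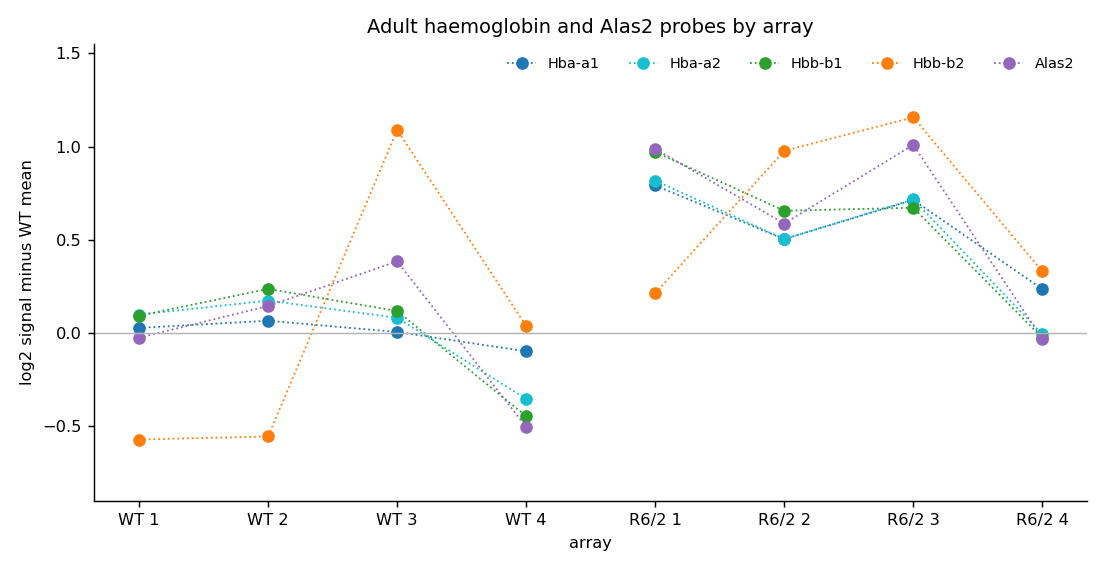
Log2 signal minus the WT mean (vertical axis) on each of the 8 arrays (horizontal axis) for the 4 adult haemoglobin probes and Alas2, with dotted lines joining the arrays of a genotype for reading only. Hba-a1, Hba-a2, Hbb-b1 and Alas2 keep a like profile and are lowest on replicate 4 of each genotype, while Hbb-b2 is lowest on WT replicates 1 and 2 and on R6/2 replicate 1.

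Hbb-b2 did not share that profile. Its correlation with the same 4 probes was 0.35 to 0.55, and 0.02 to 0.34 with genotype means removed. Its log2 signal minus the mean of Hba-a1, Hba-a2 and Hbb-b1 was -3.30, -3.37, -1.63 and -2.32 in the WT arrays and -3.30, -2.23, -2.20 and -2.39 in the R6/2 arrays. These values fell at 3 levels that cut across genotype: WT replicates 1 and 2 with R6/2 replicate 1, then WT replicate 4 with the other 3 R6/2 arrays, and WT replicate 3 highest. The grouping was seen in the values and is not in the labels.

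The probe named Beta-s, of the adult beta gene Hbb-bs, lies outside the naming rule. It read 2.20, 2.36, 3.43 and 2.12 in the WT arrays and 3.99, 3.78, 4.58 and 2.70 in the R6/2 arrays. Only R6/2 replicate 4 was below a WT array, and the log2 difference was 0.58 ± 0.20 (SE, n = 4 per genotype; limma adjusted p = 0.202). The start of this probe matched Hbb-bs at all 46 bases that the promoter table covers and differed from Hbb-bt at 7 of 45. Relative to the same 3 probes, its signal followed the levels of Hbb-b2 in a narrower range. It was -4.61 to -4.54 on the 3 low arrays, -4.31 to -4.18 on the next 4 and -3.97 on WT replicate 3.

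Other probes near the beta cluster on chromosome 7 followed the relative Hbb-b2 signal. Among probes with an SD above 0.5 on the log2 scale over 8 arrays, 8 of 69 within 20 Mb of the cluster had an absolute r of at least 0.8 with it, which is 11.6%. Elsewhere 47 of 3175 did, or 1.48%. Without WT replicate 3 the counts were 9 and 43, but only 6 and 20 probes reached this r both with and without that array. These are descriptions of a pattern chosen after its values were seen, and globin probes are left out. The 8 were 4933406I18Rik, B230311B06Rik, Spon1, Xndc1, Mical2, Tmc7, Trim34a and P4ha3. Of these, Mical2 (r = 0.771) and Trim34a (r = -0.7995) fell short of 0.8 without WT replicate 3. Tmc7, a transmembrane channel-like gene 14.7 Mb from the cluster, had log2 signals of 1.33, 1.13, -1.72 and 0.40 in WT and 1.13, 0.73, 0.40 and 0.18 in R6/2. Its lowest array, WT replicate 3, was the highest for Hbb-b2 relative to the other 3 probes. Whether the samples carry different beta haplotypes was not tested.

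**Figure D3:**
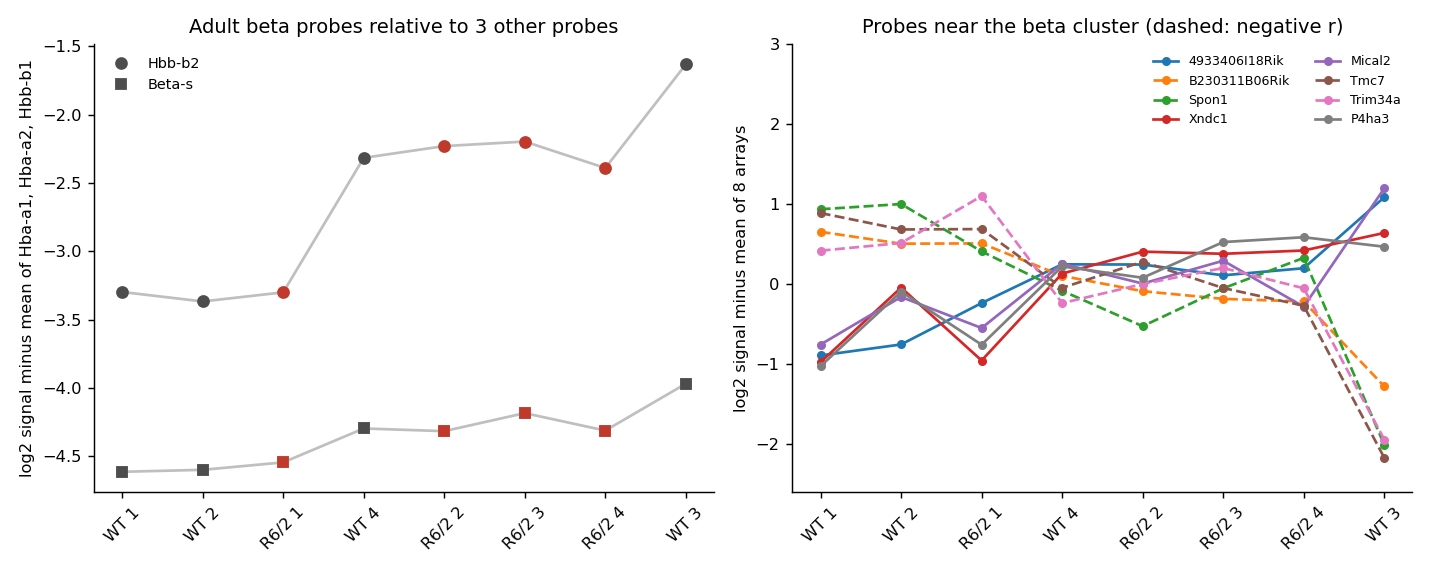
Left: log2 signal of the Hbb-b2 probe (circles) and the Beta-s probe (squares) minus the mean of Hba-a1, Hba-a2 and Hbb-b1, with WT arrays in dark grey and R6/2 arrays in red. Right: log2 signal minus the mean of 8 arrays for the 8 probes within 20 Mb of the beta cluster that followed Hbb-b2, dashed where r was negative; arrays are ordered by the 3 levels of Hbb-b2, which mix the genotypes.

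Among genes well above background on all 8 arrays, 16465 were compared with the mean of the 5 tested haemoglobin probes. This mean mixes unlike profiles. With genotype means removed, Hbb-bh1 had r = 0.87 with Hbb-b2 but 0.18 to 0.22 with Hba-a1, Hba-a2 and Hbb-b1. A gene that is like the mean therefore need not follow the probes that moved together. The 5 most alike over the 8 arrays were Hbb-bs (r = 0.99), Gm11696 (0.98), Slc22a13b (0.97), the homeobox gene Dlx5 (0.95) and the centriole gene Cep164 (0.94). Their log2 differences between genotypes were 0.58, 0.39, 0.23, 0.19 and 0.27. With genotype means removed, the 5 most alike were Rhox8, 9030419F21Rik, Ptprb, 3300002A11Rik and 9530029O12Rik, each at r = 0.98 to 0.99. Over the 8 arrays as measured, r was -0.23 for Rhox8 and 0.39 for Ptprb, a receptor phosphatase of endothelial cells. The number of genes at r of 0.9 or more was 40 as measured and 194 with genotype means removed, over 8 arrays in both cases.

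The genes around the haemoglobin loci were compared next. Some of them are globin genes that share listed transcripts or sequence with the probes above, so they are also given without these. In the 31 named genes tested within 500 kb of a probe above, 0 were called by limma, 0 by the methods' t-test and 2 had an unadjusted p under 0.05, against 1.95% called and 18.9% with such a p of the 17569 genes tested. Those 2 were Hbb-bs and Pfkfb1, a regulator of glycolysis beside Alas2 with a log2 difference of 0.35 ± 0.13 (SE; limma adjusted p = 0.229). The median difference was 0.08 over 15 genes at the alpha cluster, 0.10 over 9 at the beta cluster and 0.11 over 7 around Alas2, beside 0.02 over all genes tested. Without the globin genes 29 were tested, 0 were called by limma or by the methods' t-test, and 1 had an unadjusted p under 0.05. The medians were then 0.08 over 14 genes, 0.06 over 8 and 0.11 over 7.

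Genes of red cells other than the haemoglobins were counted by direction. Among all genes 1.95% were called, so a list of this size would hold few or no calls, and nothing is read from the genes left uncalled. Of 36 such genes 24 were tested, 0 were called higher and 1 lower, beside 0.478% and 1.47% of all genes, and 6 had an unadjusted p under 0.05, beside 18.9% of all. The median log2 difference was -0.05, with 10 positive and 14 negative. Gata1, the erythroid transcription factor, was among the 8 of these 36 genes that were not well above background on any array. Slc4a1, the anion exchanger of the red cell membrane, had a log2 difference of 0.21 ± 0.27 (SE; limma adjusted p = 0.733) and was picked here after its values were seen. The summed signal of the 24 genes was 76.8 to 79.9 in WT and 75.4 to 79.7 in R6/2. Bnip3l gave 17.6% to 21.8% of it on each array, whereas dim genes such as Slc4a1, at 0.0637 to 0.141, hardly enter it.

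Epor, the receptor of erythropoietin, was the red cell gene called. It read 3.03, 3.38, 2.48 and 2.92 in the WT arrays and 2.21, 1.76, 1.83 and 1.84 in the R6/2 arrays. All R6/2 arrays were below all WT arrays, and Epor fell by 0.63 ± 0.12 on the log2 scale (SE; limma adjusted p = 0.0465). With the replicate block its adjusted p was 0.0702, and it kept its call when WT replicate 3 was left out and lost it without any other array.

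The enzymes and carriers of haem synthesis and export were all tested. Of these 19 genes 0 were called by limma, 1 by the methods' t-test, and 4 had an unadjusted p under 0.05, beside 1.95% called and 18.9% with such a p among all genes. The share with such a p is near that of all genes. Their median log2 difference was 0.09, with 15 positive and 4 negative, and without WT replicate 3 the median was 0.06. Their summed signal was 78.9 to 87.1 in WT and 88.2 to 93.8 in R6/2, so all R6/2 arrays were above all WT arrays, and the WT range without replicate 3 was 82.8 to 87.1. Pgrmc1 alone gave 19.1% to 24.8% of this sum on each array, and its mean was 17.2 in WT and 20.2 in R6/2. Slc25a38, the mitochondrial glycine carrier that feeds haem synthesis, read 5.56, 5.27, 5.04 and 5.34 in WT and 6.35, 6.68, 6.64 and 6.72 in R6/2. The arrays did not overlap, at a log2 difference of 0.32 ± 0.06 (SE; limma adjusted p = 0.0559). Abcb10, a mitochondrial transporter of the same pathway, had 0.28 ± 0.08 (SE; limma adjusted p = 0.118). Alas1, the paralogue of Alas2, had -0.05 ± 0.10 (SE; limma adjusted p = 0.840) and was picked as the paralogue. For Alas1 WT replicate 3 read 15.9 and the other WT arrays 12.0 to 12.8, so the sign of its difference rests on that array.

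In haem breakdown and sensing 11 of 12 genes were tested, 0 were called higher and 1 lower, beside 0.478% and 1.47% of all genes, with a median of 0.00. Without WT replicate 3 the median was 0.02. Blvrb and Hpx, the haem carrier haemopexin, had an unadjusted p under 0.05, and Hpx had a log2 difference of -0.49 ± 0.18 (SE; limma adjusted p = 0.215). The summed signal was 22.9 to 25.2 in WT and 23.3 to 24.0 in R6/2. Blvrb, biliverdin reductase B, read 1.26, 1.22, 1.12 and 1.22 in WT and 0.931, 0.784, 0.7999 and 0.908 in R6/2. The genotypes did not overlap, and Blvrb fell by 0.50 ± 0.08 on the log2 scale (SE; limma adjusted p = 0.0345). With the replicate block its adjusted p was 0.0569, and of the 8 fits that left out an array it was called in that without WT replicate 3 alone.

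Iron handling showed 0 calls by limma among 19 tested genes, 0 by the methods' t-test and 2 with an unadjusted p under 0.05, at a median log2 difference of 0.04 and beside 18.9% of all genes with such a p. Without WT replicate 3 the median was 0.02. The summed signal was 539 to 616 in WT and 527 to 602 in R6/2. Of these, Tfrc, the transferrin receptor, had a log2 difference of -0.27 ± 0.11 (SE; limma adjusted p = 0.270). Of the other globins Ngb, Cygb and Mb, 2 of 3 were tested and 0 were called by limma or by the methods' t-test. Besides Beta-s, the tested alpha-like or beta-like globin probes outside the naming rule and this list were those of Hba-ps4 and Hbq1a. Hba-ps4 was dim, at 0.0549 to 0.0742 in WT and 0.0877 to 0.102 in R6/2. Its log2 difference was 0.56 ± 0.10 (SE), with all R6/2 arrays above all WT arrays. Relative to its SE this difference was larger than that of Epor, which limma called. Hba-ps4 therefore also passed limma's threshold of an adjusted p under 0.05, as higher in R6/2. Hbq1a was well above background on 2 WT and 3 R6/2 arrays only and had 0.97 ± 0.43 (SE; limma adjusted p = 0.296). Part of that difference comes from WT replicate 3, which read 0.0108 against 0.0243 to 0.0347 on the other WT arrays. Cygb, cytoglobin, read 24.9, 23.0, 21.9 and 21.6 in WT and 18.6, 18.2, 17.8 and 16.2 in R6/2. The R6/2 arrays were all lower, at -0.37 ± 0.08 (SE; limma adjusted p = 0.0652, unadjusted p = 0.00150). Ngb, neuroglobin, had -0.11 ± 0.20 (SE; limma adjusted p = 0.810).

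Markers of other cells that blood or vessels could bring were given for every list. By limma, 0 genes were called among 8 platelet, 8 neutrophil, 9 lymphocyte, 18 endothelial, 10 mural cell, 10 choroid plexus and 10 microglia markers. The unadjusted p was under 0.05 for 2 lymphocyte and 2 mural cell genes and for none of the others. Among all genes 1.95% were called and 18.9% had such a p. At a share of 1.95%, lists of this size would hold few or no calls, so nothing is read from the absence of calls. The methods' t-test called 0 in each of these lists. Their part in the haemoglobin differences was not tested. Summed signal was 1.71 to 1.99 in WT and 1.64 to 1.75 in R6/2 for platelet markers, and 105.3 to 160 against 105.3 to 131 for neutrophil markers. The neutrophil sum was almost wholly Csf3r, which gave 92.6% to 99.1% of it on each array. For lymphocyte markers the summed signal was 9.77 to 10.4 against 7.93 to 9.52. Cd4 alone gave 47.4% to 58.8% of that sum on each array, and its mean was 5.73 in WT and 4.28 in R6/2. For endothelial markers the summed signal was 76.0 to 150.2 against 76.8 to 91.8. It was 22.0 to 25.1 against 17.8 to 24.0 for mural cell markers, 56.2 to 246 against 47.6 to 189 for choroid plexus markers and 61.1 to 81.8 against 63.9 to 66.7 for microglia markers. Ttr gave 84.3% to 89.5% of the choroid plexus sum on each array. WT replicate 3 was the highest WT array for the platelet, neutrophil, endothelial, mural cell, choroid plexus and microglia sums. Without it the highest WT sums were 1.87, 129, 84.6, 24.5, 235 and 72.9 in that order. In these bulk samples, fewer cells of a type and less RNA per cell cannot be told apart. Of the defining markers, Gp1ba of platelets and Ms4a1, Cd3d and Cd8a of lymphocytes were not well above background on any array.

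The median log2 difference was -0.05 for platelet, -0.31 for neutrophil, -0.07 for lymphocyte, -0.16 for endothelial, -0.20 for mural cell, -0.16 for choroid plexus and -0.09 for microglia markers. Without WT replicate 3 it was -0.11, 0.05, -0.07, -0.02, -0.05, 0.16 and -0.08 in the same order, so the sign of the neutrophil and choroid plexus medians turned. The named genes of these lists are those of smallest p. Tagln, a smooth muscle protein, had -0.65 ± 0.14 (SE; limma adjusted p = 0.0614, and 0.0477 without WT replicate 3). Cd4, which microglia can also hold, had -0.42 ± 0.10 (SE; limma adjusted p = 0.0780), and the kinase gene Lck had 0.42 ± 0.11 (SE; limma adjusted p = 0.116). The other named markers had log2 differences of -0.25 for Gp1bb and -0.42 for Treml1 of platelets, -1.43 for Lcn2 and -0.15 for Csf3r of neutrophils, and -0.34 for Tie1 and -0.26 for Emcn of endothelium. They were -0.22 for Rgs5 of mural cells and -0.60 for C1qb and -0.38 for C1qc of microglia. Without WT replicate 3 the difference was -0.28 for Treml1, 0.01 for Lcn2, -0.07 for Csf3r, -0.34 for C1qb and -0.17 for C1qc. In choroid plexus, Kcne2 was well above background on 2 WT and 3 R6/2 arrays and its difference is not given. Sostdc1 had 0.49, with -0.12 to 1.04 when an array was left out. None of these genes passed limma's test after adjustment.

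The striatal markers held most of the calls in these lists. Of 10 tested genes 6 were called lower and 0 higher, beside 1.47% and 0.478% of all genes, at a median log2 difference of -0.72. Penk, the enkephalin precursor, fell by 1.11 ± 0.11 (SE; limma adjusted p = 0.0102) and Pde10a, a striatal phosphodiesterase, by 0.99 ± 0.14 (SE; limma adjusted p = 0.0246). Ppp1r1b, the phosphoprotein DARPP-32, fell by 0.73 ± 0.11 (SE; limma adjusted p = 0.0291), and Pdyn, the dynorphin precursor, by 0.63 ± 0.11 (SE; limma adjusted p = 0.0371). With the replicate block 2 of the 10 were called, by the methods' t-test 1 was, and without WT replicate 3 there were 4. Over every setting run the count lay between 1 and 9.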

How the data were processed

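Per the file headers, the scanner files came from Agilent Feature Extraction 10.7.3.1 on build mm9, and the intensity used is the processed signal that the authors deposited. Other upstream steps are not given in the sources used here. The log2 values in the authors' deposited table equal log2 of that intensity minus a constant per array, as found from the values, with column medians of -3.48 to -3.27. Its p-value column, per the file headers from an unpaired t-test, was matched within 1% for 100% of probes by an equal-variance test on those values (the methods' t-test); the authors' fold (ratio) column was not used.

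Here, log2 of the processed signal minus the array's 75th percentile was analysed, without spots marked non-uniform or as population outliers. Probes well above background on at least 4 of 8 arrays were tested with limma 3.58.1 in R 4.3.3 (lmFit, eBayes; Benjamini-Hochberg over 35121 probes; called under 0.05), a procedure also tested on simulated data. A gene is its tested probe of highest mean. Names came from the files, through accession or gene number to GRCm38.p6. Sums add the signals of a list's tested genes on each array.

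The rule named every haemoglobin and Alas2 probe, up to 4 called genes of smallest p per list (or 2 where none was called), the 2 neighbours of smallest p, and the 5 genes most alike in each way. A few list genes are not reported here by name but are counted. The members and lists were chosen with earlier results of these data known. WT and R6/2 arrays with the same number deviated together (r = 0.22, 0.18, 0.36 and 0.13, from their titles; the numbers also give the row on the slide). The replicate block therefore used these numbers. Whether the samples themselves were paired is not known, because pairing and slide row cannot be told apart. The authors' sample descriptions also give unlike numbers to the 2 arrays of replicate 4, and like numbers within each other pair. Alternatives covered background correction, scaling, filters, probes, the pairing, array weights, the authors' values, the test and each array left out.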

Additional observations from a re-analysis of the deposited data

Results flagged for a closer look

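In 3 of the 70 groups of 4 arrays examined, 1 array stood apart from the other 3 by Dixon's test, and chance alone marks about 1 group in 20. All values are log2 of the signal relative to the array's 75th percentile. Lcn2, an acute-phase iron-carrier protein, read 2.79 in WT replicate 3 and -3.04 to -2.89 in the other WT arrays. Ngb, neuroglobin, read -3.17 in R6/2 replicate 4 and -3.88 to -3.79 in the others. Tie1, an endothelial receptor, read -2.31 in R6/2 replicate 3 and -2.80 to -2.73 in the others. No haemoglobin or Alas2 probe had an outlying array in either genotype.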

How the results depend on the processing

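The number of genes called moved most with the processing. It was 342 (84 higher, 258 lower), and 152 (57 higher, 95 lower) with the array median, 610 with array weights, 538 with all probes of a gene averaged, 82 with no filter, 651 with normexp and the 75th percentile, 801 (321 higher, 480 lower) with normexp and quantile, 178 by the methods' t-test and 79 to 329 with an array left out. Leaving out any array but WT replicate 3 lowered it by over 1.5 times. With the replicate block, which pairs the samples by number, it was 182, and the calls in red cell genes and in haem breakdown fell to 0 and 0. Red cell genes called were 0 with the array median, no filter and the methods' t-test, 2 with array weights and with either normexp setting, and 0 to 1 with an array left out. Haem breakdown genes called were 0 with the array median, no filter and the methods' t-test, and 0 to 1 with an array left out. Haem synthesis genes called were 1 with array weights, all probes averaged, normexp and the 75th percentile, quantile of the processed signal, the methods' t-test and probes above background on all 8 arrays, and 2 with normexp and quantile. Other globins called were 1 with array weights, all probes averaged and either normexp setting. In every fit run, 0 iron handling genes and 0 neighbours were called. The mean haemoglobin difference lay between 0.26 (no filter, which adds 3 probes at background) and 0.55, the mean of the 4 adult probes between 0.50 and 0.72, and the Alas2 difference between 0.47 and 0.86; each kept its direction under all 20 other settings. The 4-probe mean, the counts of probes like Hbb-b2 without WT replicate 3 and the list medians without it were chosen after seeing the data. A slide or scan block was not run because all arrays share 1 slide and 1 scan. The cause of these moves was not tested. The dim Hbb-bh1 and the probes at background set the limit of what can be read of the embryonic genes.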
